A study of Mus musculus with 8 samples.

Results

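The genes described here are those of p53, the transcription factor that cells stabilise after DNA damage, with its 2 main regulators and 7 of its target genes, measured in both eGFP-sorted fractions of mouse medulloblastomas, Sox2-positive and Sox2-negative. They were chosen by name, as a list of 10 genes (Trp53, Mdm2, Mdm4, Ccng1, Phlda3, Trp53inp1, Zmat3, Bax, Bbc3 and Pmaip1) and not by a threshold on their values. Of these, 8 were analysed among 22180 genes, each through the 1 probe set that the platform annotation gives to that gene alone. Trp53, which encodes p53 itself, and Bax, a pore-forming protein of the mitochondrial death pathway, were not analysed here.

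In unstressed cells p53 is kept low by Mdm2, a ubiquitin ligase that marks it for breakdown, and by its relative Mdm4, which binds p53 and blocks its activity. DNA damage frees p53 from both, and p53 then switches on genes for growth arrest, repair and cell death, among them Mdm2 itself, which closes a feedback loop. Granule neuron progenitors of the newborn cerebellum, the cells from which Hedgehog-driven medulloblastomas arise, are known to die in a p53-dependent way after irradiation.

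All mice carried 1 mutant copy of Patched1, the Hedgehog receptor, on a CD1 background and the reporter Sox2eGFP from B6 parents, and all received 3 Gy of ionizing radiation at birth to induce tumours. Tumours were taken from animals older than 70 days that showed signs of disease, were dissociated, were depleted of CD45+ and Ter119+ blood cells, and were sorted by eGFP. The Sox2-positive group held the eGFP+ cells and the Sox2-negative group the eGFP- cells, with 4 arrays each, and every array held RNA of 1 pool of 3 tumours. Both groups were irradiated alike, long before sampling, so the comparison does not measure the response to radiation. The labels do not describe the reporter construct, and the sort follows eGFP rather than the Sox2 protein.

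Values are RMA log2 values, on which a difference of 1 is a 2-fold change. Differences are Sox2-positive minus Sox2-negative, and a gene is said to have risen or fallen in Sox2-positive cells where the limma test gave an adjusted p under 0.05. Array medians over all genes lay between 5.83 and 5.88, and 1879 of 22180 genes (8.47%) passed the test, 1321 of them higher (5.96%) and 558 lower (2.52%). The cell type markers differed between the fractions. All 6 oligodendrocyte progenitor markers rose, Olig1 the most (log2 difference 4.01), with the mean log2 value over the list at 8.87 to 9.46 in Sox2-positive and 6.26 to 6.39 in Sox2-negative pools. Of 6 astrocyte markers 5 rose, led by Slc1a3 (2.16), at 7.32 to 8.07 against 6.47 to 6.69. All 6 granule neuron progenitor markers fell, Cntn2 the most (-1.49), at 7.82 to 8.14 against 8.73 to 8.99. None of the 4 markers of dividing cells analysed passed (Top2a, the largest, 0.25), nor did any of 6 for microglia and macrophages (Aif1, -0.09), 3 for lymphocytes (Cd79b, 0.28) or the 1 for red blood cells (Slc4a1, 0.14). Of 5 vessel markers 1 rose, the pericyte gene Rgs5 (0.37), while its dimmer probe set had a difference of 0.05.

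The bases upstream of the transcription start are shown for 2 of the list's genes and 2 further p53 targets. Those of Ccng1 and Cdkn1a hold a match, with 1 mismatch, to the DNA element that p53 binds. Those of Mdm2 and Ei24 hold 1 exact match to a unit of 10 bases, 2 of which make up this element. Bases after the start were not searched, so a unit there would not be seen. These windows belong to the gene that passed the test, the main p53 regulator, and an arrest and a death pathway gene described below. They are the 250 bases before an annotated start in RefSeq (GRCm38.p6), 5′ to 3′ on the gene's strand, with matches in capitals. The Ccng1 window is chr11:40755287-40755536 on the minus strand, the Mdm2 window chr10:117710759-117711008 on the minus strand, the window of the upstream start of Cdkn1a chr17:29090729-29090978 on the plus strand, and the Ei24 window chr9:36797335-36797584 on the minus strand.
Ccng1: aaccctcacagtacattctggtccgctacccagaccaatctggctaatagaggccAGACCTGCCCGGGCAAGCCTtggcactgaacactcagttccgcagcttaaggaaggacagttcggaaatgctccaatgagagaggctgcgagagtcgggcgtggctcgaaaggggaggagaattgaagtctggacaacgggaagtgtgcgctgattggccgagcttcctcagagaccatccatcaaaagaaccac
Mdm2: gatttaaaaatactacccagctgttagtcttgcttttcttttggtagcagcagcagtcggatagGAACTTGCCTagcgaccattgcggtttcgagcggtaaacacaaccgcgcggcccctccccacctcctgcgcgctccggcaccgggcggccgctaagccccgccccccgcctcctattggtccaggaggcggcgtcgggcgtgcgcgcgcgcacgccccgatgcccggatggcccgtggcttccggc
Cdkn1a: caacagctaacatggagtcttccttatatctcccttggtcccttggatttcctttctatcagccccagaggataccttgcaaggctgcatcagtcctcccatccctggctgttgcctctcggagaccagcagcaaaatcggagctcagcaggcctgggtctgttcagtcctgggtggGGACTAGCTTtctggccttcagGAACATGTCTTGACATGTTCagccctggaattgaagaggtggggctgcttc
Ei24: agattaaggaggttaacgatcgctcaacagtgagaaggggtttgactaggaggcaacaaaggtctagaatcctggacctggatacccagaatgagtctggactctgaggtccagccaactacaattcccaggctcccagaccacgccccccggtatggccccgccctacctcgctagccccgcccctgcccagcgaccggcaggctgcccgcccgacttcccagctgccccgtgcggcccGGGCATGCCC

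The search used the consensus decamer of the p53 response element, which is its own reverse complement and so reads the same on both strands. The full element is 2 such decamers, so a single one is only a part of it. Pairs with other bases between the 2 decamers were not searched for. An exact decamer stands in 7.13% of 32851 windows of this length before annotated starts, and a pair of adjoining decamers with at most 1 mismatch in 0.0761% (25 windows). Of the 8 genes analysed, 5 had windows, 8 in all, for Mdm2, Mdm4, Ccng1, Phlda3 and Bbc3. Ccng1 holds such a pair, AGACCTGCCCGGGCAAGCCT, with 1 mismatch, from 195 to 176 bases before the start. Mdm2 holds a single decamer, GAACTTGCCT, from 186 to 177 bases before the start. Among 17 other p53 targets with windows, 6 hold an exact decamer. The 17 genes have 24 windows in all, and 6 of the 24 hold one. Cdkn1a holds a pair with 1 mismatch, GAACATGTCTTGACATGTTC, from 51 to 32 bases before its upstream start, and a separate decamer before it. The window before its downstream start holds neither. Ei24 holds the single decamer GGGCATGCCC in the last 10 bases before its start, so an adjoining one after the start would lie outside the window. These matches are descriptions of the letters in each window, not measured binding.

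Of the 8 genes, Ccng1 alone passed the test between the fractions, and it rose in Sox2-positive cells. That is 1 of 8 (12.5%), beside 8.47% of all genes, so the count does not set the list apart from the rest of the array. The median log2 difference over the 8 was 0.11, beside -0.03 over all genes, with 5 positive and 3 negative values. Their median absolute difference was 0.14, beside 0.11 over all genes.

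**Figure D1:**
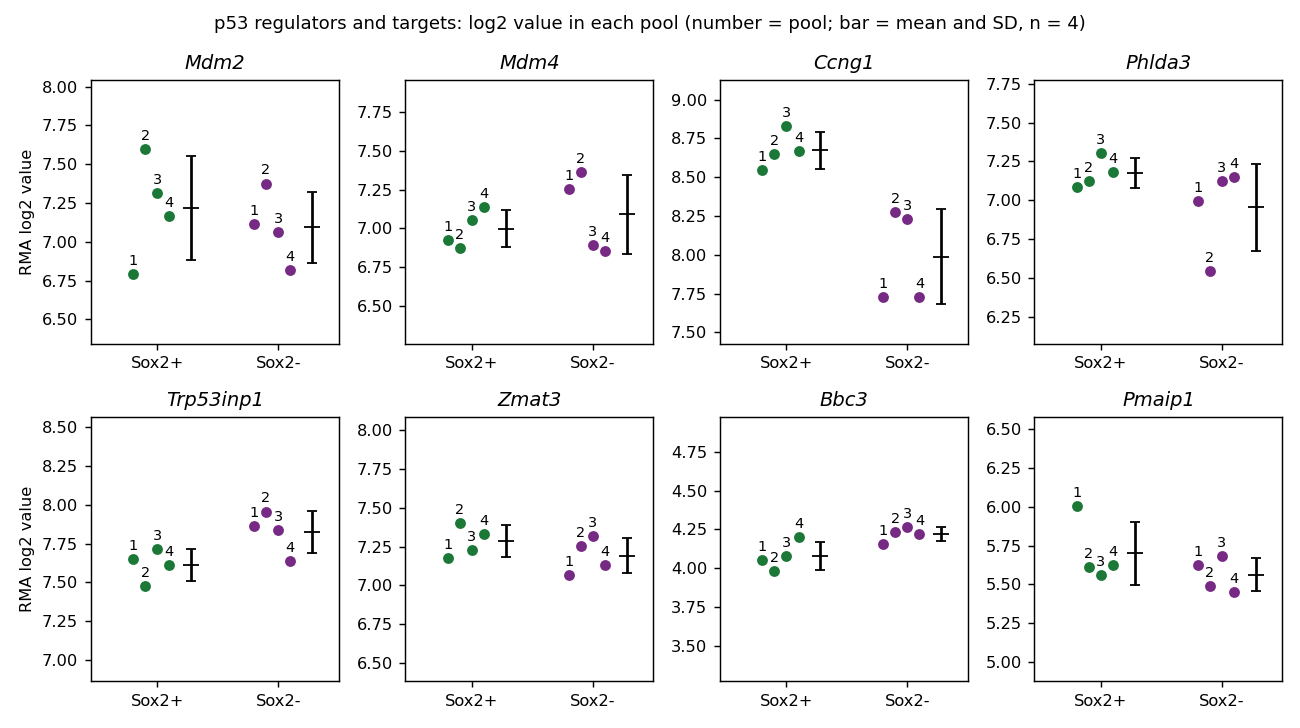
RMA log2 values (y axes) of the 8 genes analysed in the 4 Sox2-positive (green) and 4 Sox2-negative (purple) pools, with pool numbers beside the points and the mean and SD (n = 4) as bars; every panel spans the same number of log2 units and starts above 0. Only the Ccng1 panel has groups that do not overlap, with Sox2-positive pools at 8.55 to 8.83 and Sox2-negative pools at 7.73 to 8.28.

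Neither regulator of p53 passed the test. Mdm2, the ubiquitin ligase, was at 6.79, 7.60, 7.32 and 7.16 in Sox2-positive pools 1 to 4 and at 7.11, 7.38, 7.06 and 6.82 in Sox2-negative pools 1 to 4. The groups overlapped over most of their range, and the lowest value of all 8 was that of Sox2-positive pool 1. Their means were 7.22 ± 0.34 and 7.09 ± 0.23 (SD, n = 4 each), and the log2 difference was 0.12 (SE 0.16, 95% interval -0.21 to 0.46, limma adjusted p = 0.731). Without Sox2-positive pool 2, the highest, the difference was -0.0017, so its sign rests on that pool.

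Mdm4, the relative that blocks p53 without degrading it, was at 6.92, 6.88, 7.06 and 7.14 in Sox2-positive pools 1 to 4. In Sox2-negative pools 1 to 4 it was at 7.26, 7.36, 6.89 and 6.85. Sox2-negative pools 1 and 2 were the highest and pool 4 the lowest of all arrays, so the Sox2-negative group enclosed the whole Sox2-positive one. The means were 7.00 ± 0.12 and 7.09 ± 0.26, and the log2 difference was -0.09 (SE 0.12, 95% interval -0.36 to 0.17, adjusted p = 0.747). With 1 pool left out it ran from -0.17 (without Sox2-negative pool 4; -0.16 without pool 3) to -0.0016 (without Sox2-negative pool 2). It was -0.04 without Sox2-negative pool 1 and -0.05 without Sox2-positive pool 2.

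Ccng1 encodes cyclin G1, a direct target of p53 that acts back on Mdm2 with the phosphatase PP2A. It was at 8.55, 8.65, 8.83 and 8.67 in Sox2-positive pools 1 to 4, against 7.73, 8.28, 8.23 and 7.73 in Sox2-negative pools 1 to 4. Every Sox2-positive pool lay above every Sox2-negative pool, a separation that 13.7% of all genes showed in one direction or the other. Within the Sox2-negative group, pools 2 and 3 lay about 0.5 log2 units above pools 1 and 4, a wider spread than in the Sox2-positive group (SD 0.30 against 0.12). Ccng1 was 1.61-fold higher in Sox2-positive cells (means 8.67 ± 0.12 and 7.99 ± 0.30, log2 difference 0.68, SE 0.13, 95% interval 0.39 to 0.97, limma adjusted p = 0.00502). The size of this difference was at the 96.5th percentile of the absolute differences of all genes. The call held under all 15 alternatives, with differences from 0.60 to 0.78 and adjusted p from 0.00127 to 0.0213. In such bulk samples a higher level per cell and more cells that express the gene cannot be told apart. The oligodendrocyte progenitor and astrocyte markers moved in the same direction, as given above, and their part in the difference was not tested.

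The other targets linked to arrest and survival signals did not pass. Phlda3, which restrains the survival kinase Akt by competing for membrane lipids, was at 7.09, 7.12, 7.31 and 7.18 in Sox2-positive pools 1 to 4 and at 7.00, 6.55, 7.12 and 7.15 in Sox2-negative pools 1 to 4. Sox2-negative pool 2 lay below all other arrays, pool 1 lay just under the Sox2-positive range, and pools 3 and 4 lay within it. The log2 difference was 0.22 (SE 0.13, 95% interval -0.05 to 0.49, adjusted p = 0.368), 0.08 without that pool, and 0.14 with quantile normalization.

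Trp53inp1, a stress-induced nuclear protein that works with p53 and in autophagy, had the opposite sign. It was at 7.65, 7.47, 7.72 and 7.61 in Sox2-positive pools 1 to 4 and at 7.86, 7.96, 7.84 and 7.64 in Sox2-negative pools 1 to 4. Sox2-negative pools 1 to 3 were above every Sox2-positive pool, and pool 4 lay within the Sox2-positive range. The log2 difference was -0.21 (SE 0.10, 95% interval -0.42 to -0.01), with an unadjusted p of 0.0439 in the limma test that did not pass after adjustment over all genes (0.23). With quantile normalization the difference was -0.28 (limma adjusted p = 0.0612), which did not pass either. An unadjusted p under 0.05 was found for 20.1% of all genes, and for Ccng1 and Trp53inp1 among these 8.

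Zmat3, an RNA-binding zinc finger protein, was at 7.18, 7.40, 7.23 and 7.33 in Sox2-positive pools 1 to 4 and at 7.07, 7.25, 7.32 and 7.13 in Sox2-negative pools 1 to 4. The groups overlapped, and the log2 difference was 0.09 (SE 0.09, 95% interval -0.11 to 0.29, adjusted p = 0.644). It was 0.05 without Sox2-negative pool 1, also 0.05 without Sox2-positive pool 2, and 0.02 with quantile normalization.

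The death genes Bbc3 and Pmaip1 encode Puma and Noxa, BH3-only proteins that free or activate Bax and its relative Bak. Both were dim. The sensory receptor genes of smell and pheromones, 1390 in number and with no known role in these cells, served as a measure of dim values and had a lower quartile of 4.16, a median of 4.95 and an upper quartile of 5.80. Bbc3 was at 4.05, 3.98, 4.08 and 4.20 in Sox2-positive pools 1 to 4 and at 4.16, 4.23, 4.27 and 4.22 in Sox2-negative pools 1 to 4. These values lie around the lower quartile of the receptor genes, so they do not show whether Bbc3 was above background in either fraction. Its log2 difference was -0.14 (SE 0.08, 95% interval -0.32 to 0.04, adjusted p = 0.392).

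Pmaip1 was at 6.00, 5.61, 5.56 and 5.62 in Sox2-positive pools 1 to 4 and at 5.63, 5.49, 5.68 and 5.45 in Sox2-negative pools 1 to 4. Sox2-positive pool 1 stood above the other 7 arrays, which overlapped, and was the only one above the upper quartile of the receptor genes. The log2 difference was 0.14 (SE 0.11, 95% interval -0.10 to 0.37, adjusted p = 0.546), and 0.04 without that pool.

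**Figure D2:**
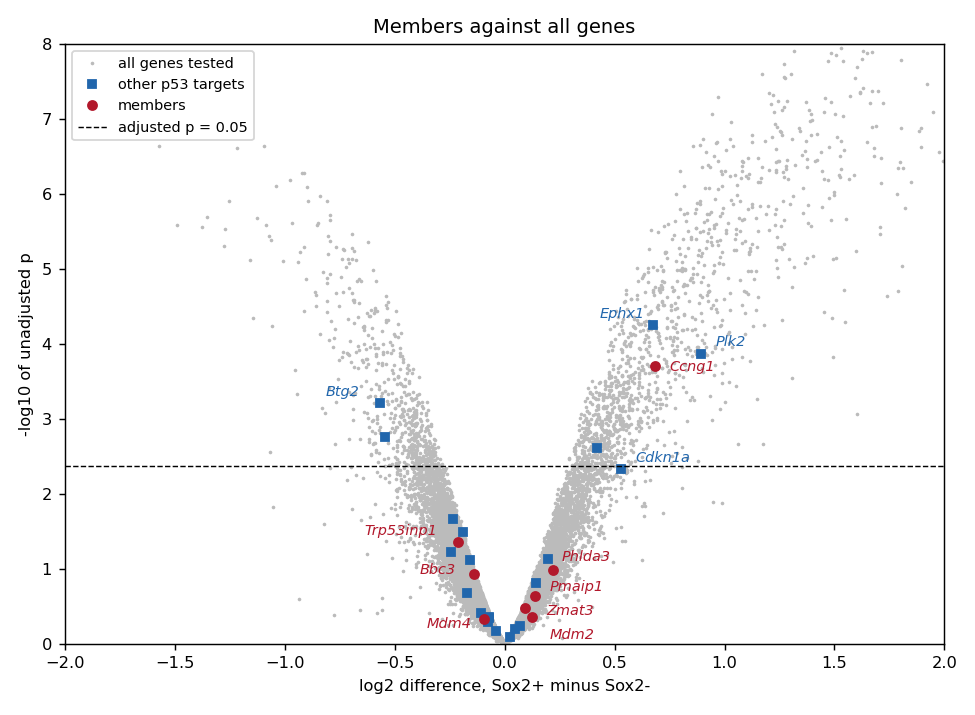
Log2 difference (x axis) against -log10 of the unadjusted p (y axis) for all genes tested (grey), the 8 genes of the list (red circles) and 21 other p53 targets (blue squares); the dashed line marks an adjusted p of 0.05, and 109 genes lie outside the axes. Ccng1 is the only red point above the line, at a difference of 0.68, and the other 7 lie between -0.21 and 0.22.

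The pools did not rank alike across the 8 genes. Sox2-negative pool 4 was the lowest of its group for 4 genes and Sox2-negative pool 2 the highest of its group for 4, but pool 2 was also the lowest for Phlda3, by 0.41 log2 units under the group mean. Among Sox2-positive pools, pool 1 was the lowest for 4 genes and the highest for Pmaip1. Averaged over the 8 genes, the deviation of a pool from its group mean ran from -0.06 to 0.04 in the Sox2-positive and from -0.12 to 0.07 in the Sox2-negative group. Between pools of equal number, the Sox2-positive value was the higher one 4 of 4 times for Ccng1 and Phlda3. It was higher 3 of 4 times for Mdm2, Zmat3 and Pmaip1, 2 of 4 for Mdm4, and 0 of 4 for Trp53inp1 and Bbc3. The labels do not say that equal numbers are pairs, and the share over all genes was not counted. Some of these differences were small, such as 0.03 for Phlda3 and -0.02 for Bbc3, both at number 4.

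Of a wider list of 24 p53 targets, 21 were analysed, and 5 passed the test, 3 higher and 2 lower in Sox2-positive cells. The share of 23.8% stands beside 8.47% of all genes, and the median log2 difference of the list was -0.07, beside -0.03. The list was chosen with earlier results of these data known, so the share is a description only. With dim genes left out, 5 of 15 listed genes passed, beside 1845 of 11548 genes. These were not the same 5, since Plk2 fell under that filter and Cdkn1a passed. Without Sox2-positive pool 2 the count was 3 of 21. Among 7 genes of growth arrest, stress and feedback, 1 rose and 2 fell.

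Plk2, a stress-induced polo-like kinase, was at 5.59, 5.90, 6.42 and 5.83 in Sox2-positive pools 1 to 4 and at 4.71, 5.04, 5.38 and 5.04 in Sox2-negative pools 1 to 4. The groups did not overlap, and the gene rose 1.86-fold (log2 difference 0.89, SE 0.17, limma adjusted p = 0.00373). The mean of 5.04 in the Sox2-negative group lay close to the median of the receptor genes, so the fold may be understated. Sox2-positive pool 1 also lay below their upper quartile of 5.80, and the other Sox2-positive pools lay above it. The gene fell under the filter on dim genes, so its level is uncertain in both fractions. Its relative Plk3 went the other way, at 5.97 to 6.43 in Sox2-positive and 6.59 to 7.18 in Sox2-negative pools. It fell by 0.54 log2 units (SE 0.14, adjusted p = 0.0268). Leaving out pool 2 of either fraction or pool 3 of the Sox2-negative one ended this call (adjusted p 0.0641 to 0.0899). Plk3 and Ei24 were named after their values were seen, as the remaining genes of the list that passed.

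Btg2, an antiproliferative cofactor of transcript decay, was at 6.71, 6.73, 6.53 and 6.46 in Sox2-positive pools 1 to 4 and at 7.03, 7.52, 7.25 and 6.90 in Sox2-negative pools 1 to 4. All Sox2-negative pools were above all Sox2-positive ones, and Btg2 fell by 0.57 (SE 0.13, adjusted p = 0.0121). The windows before the starts of Plk2, Plk3, Btg2 and Ephx1 held no exact match to the decamer (0 each). Only 7.13% of all windows hold one, and bases outside these windows were not searched.

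Cdkn1a, which encodes p21, the inhibitor of cyclin-dependent kinases that carries much of the p53 arrest response, lay close to the threshold. It was at 8.47, 8.59, 8.78 and 8.81 in Sox2-positive pools 1 to 4 and at 7.95, 8.05, 8.67 and 7.88 in Sox2-negative pools 1 to 4. Sox2-negative pool 3 lay within the Sox2-positive range, and the other 3 lay below all Sox2-positive pools. The log2 difference was 0.53 (SE 0.16, 95% interval 0.19 to 0.86, limma adjusted p = 0.053), which did not pass. It passed with the pool number as a block (0.0155), without Sox2-negative pool 3 (difference 0.71, adjusted p = 0.0013), without Sox2-positive pool 1 (0.0479) and with dim genes left out (0.0353). Over all 15 alternatives its adjusted p ran from 0.0013 to 0.16, and its difference from 0.44 to 0.71.

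**Figure D3:**
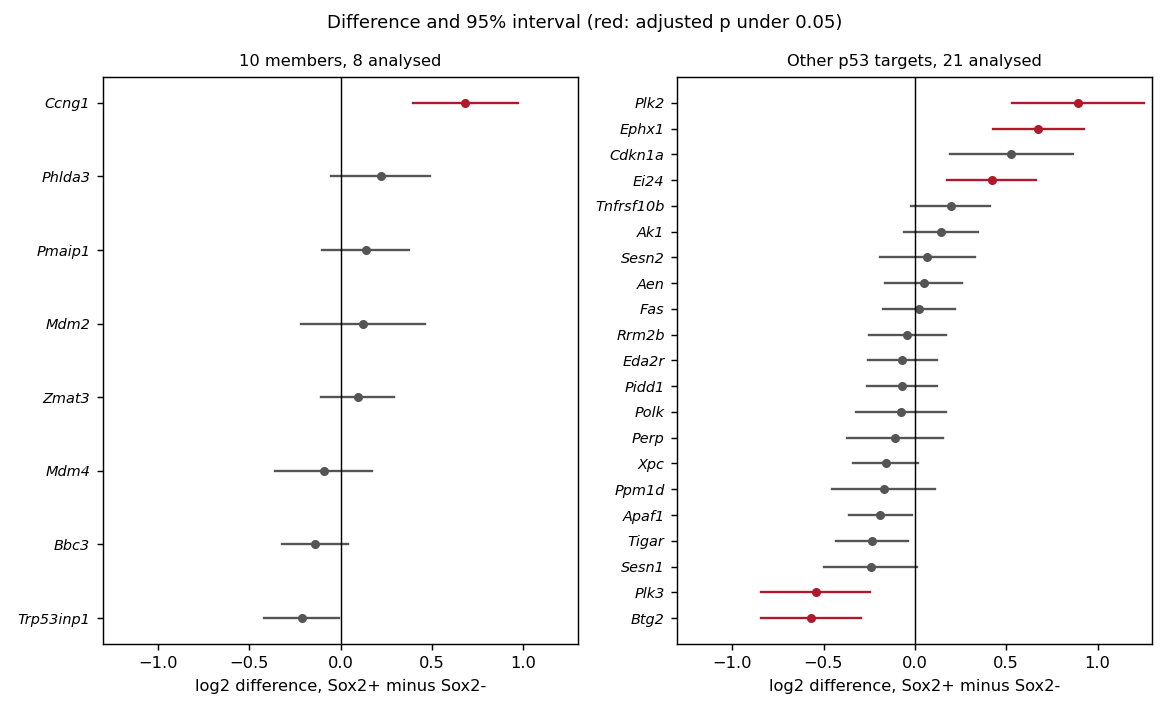
Log2 difference with its 95% interval (x axes) for the 8 genes of the list (left) and 21 other p53 targets (right), sorted by size, with genes that passed the test in red. On the left Ccng1 alone is red, and on the right Plk2, Ephx1 and Ei24 lie to the right of 0 and Btg2 and Plk3 to the left.

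Among target genes of metabolism and of death pathways, 1 of 3 and 1 of 8 rose, and 0 fell (5.96% of all genes were higher and 2.52% lower). Ephx1, the microsomal epoxide hydrolase, was at 6.71, 6.59, 7.15 and 6.95 in Sox2-positive pools 1 to 4 and at 6.24, 6.14, 6.23 and 6.09 in Sox2-negative pools 1 to 4. The groups did not overlap, and it rose 1.60-fold (log2 difference 0.68, SE 0.12, limma adjusted p = 0.00189). Ei24, a membrane protein of the endoplasmic reticulum that acts in autophagy, rose 1.34-fold, from 7.71 to 8.19 in Sox2-negative pools to 8.21 to 8.46 in Sox2-positive pools (log2 difference 0.42, SE 0.11, adjusted p = 0.0343). Leaving out any pool except Sox2-positive pool 1 and Sox2-negative pool 2 ended that call (0.0504 to 0.114). Of 3 repair and nucleotide supply genes, 0 passed in limma, with differences from -0.16 to -0.04, and 0 had an unadjusted p under 0.05, beside 20.1% of all genes.

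Of 20 genes that modify p53 or work with it, 1 fell and 0 rose (5%, beside 8.47% of all genes). Their median log2 difference was -0.11, beside -0.03. Of the 20 differences 16 were negative, beside 13019 of all 22180. Positive differences thus made up 20% of this list and 41.3% of all genes. Sirt1, a deacetylase that acts on p53, was at 7.04, 7.23, 7.02 and 6.97 in Sox2-positive pools 1 to 4 and at 7.32, 7.49, 7.45 and 7.38 in Sox2-negative pools 1 to 4. The groups did not overlap, and Sirt1 fell by 0.35 (SE 0.09, limma adjusted p = 0.0294), a call lost when any of 6 pools was left out, all but Sox2-positive pool 2 and Sox2-negative pool 1 (0.0515 to 0.0926). With the pool number as a block a second gene fell, Ppp1r13b (log2 difference -0.34, adjusted p = 0.0446, against 0.188 without the block), which encodes a p53-binding protein of the ASPP family and was named for this change. Of the paralogs of p53, Trp63 had a difference of -0.02 and Trp73 of -0.05 (95% interval -0.27 to 0.17, adjusted p = 0.844), and neither passed.

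Of 18 genes of the BCL2 family and the caspase pathway, on which Bbc3 and Pmaip1 act, 16 were analysed, and 1 rose and 0 fell (6.25%, beside 8.47%). Their median log2 difference was -0.03, beside -0.03 over all genes. Bcl2, which blocks cell death at the mitochondrion, was at 7.42, 7.59, 7.88 and 7.42 in Sox2-positive pools 1 to 4 and at 7.12, 7.10, 6.96 and 7.31 in Sox2-negative pools 1 to 4. The groups did not overlap, and Bcl2 rose 1.37-fold (log2 difference 0.45, SE 0.12, limma adjusted p = 0.0275). The dimmer of its 2 probe sets had a difference of -0.13, and with their mean the difference was 0.16 and the call was lost (adjusted p = 0.382). Quantile normalization ended it too (0.0505), as did leaving out any pool except pools 1 and 4 of the Sox2-positive and pool 4 of the Sox2-negative group (0.0571 to 0.0778).

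**Figure D4:**
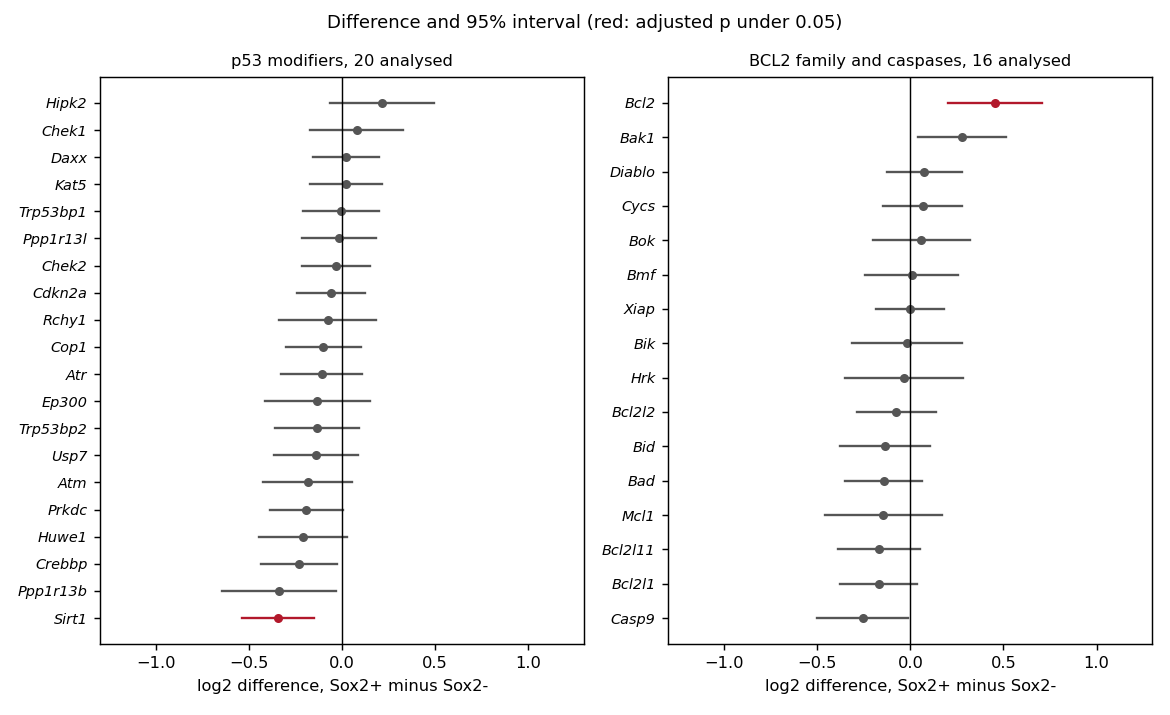
Log2 difference with its 95% interval (x axes) for 20 modifiers and partners of p53 (left) and 16 genes of the BCL2 family and the caspase pathway (right), sorted by size, with genes that passed the test in red. Sirt1 at -0.35 is the only red gene on the left and Bcl2 at 0.45 the only one on the right.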

How the data were processed

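RNA of sorted cells was measured on 8 Affymetrix arrays, 4 per fraction. The authors deposited 1 log2 value per probe set and array. The submitters' processing notes name Affymetrix Expression Console 1.2.0.20 and the RMA method. RMA subtracts background, brings the arrays to 1 distribution and combines the probes of a set, and it compresses folds of dim genes. Values of 2.51 to 13.6 showed the scale to be log2. The genome build is not given in the sources used here, and the table has no detection call. The number of arrays limits the precision (median SE over genes 0.10).

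Of 41345 probe sets, 23521 had 1 gene symbol, 1814 had several and 16010 were unnamed here. Of the first, 23328 matched a RefSeq gene table (GRCm38.p6) by Entrez identifier, and 0 symbols changed. Each gene took its probe set with the highest mean, which gave 22180 genes. Promoter sequences are from RefSeq (GRCm38.p6).

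Groups were compared in R 4.3.3 by the moderated test of limma 3.58.1 (default eBayes on lmFit, two-sided, no block), adjusted by Benjamini-Hochberg over all genes at 0.05. In simulated data with independent noise, it called 51.4% of genes changed by 0.5 log2 units. It called 94.2% of those changed by 1 and 99.9% of those changed by 2. Only 200 genes were changed there, beside the 1879 that passed here, so these shares are a rough guide. The pools are numbered in the labels and described as biological replicates, and p-values measure the spread between pools of 3 tumours. Pool numbers 1 to 4 recur in both fractions, but the labels do not say that equal numbers are pairs. Over all genes, deviations from the group means correlated at 0.164, 0.114, 0.177 and 0.241 between equal numbers (at most 0.161 between different ones). Each Sox2-positive pool correlated best with the Sox2-negative pool of its own number. Sox2-negative pool 2, however, correlated better with Sox2-positive pool 3 (0.161) than with pool 2 (0.114), so the pairing stayed unsettled. The main test left any pairing out, and the block was 1 of the alternatives. The 15 alternatives left out each array, used the number as a block, or changed the normalization, array weights, variance model, probe set choice or filter on dim genes.

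The genes, the lists and the rule for naming genes were chosen with earlier results of these data known. The rule named every analysed gene of the p53 list and Cdkn1a. Each of the 4 other lists gave up to 3 genes, those that passed with the largest differences, or 1 gene where 0 passed. Each marker list gave 1 gene. Some genes of these lists were not analysed here.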

Additional observations from a re-analysis of the deposited data

Results flagged for a closer look

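A total of 34 sets of 4 pools, from the 17 genes named other than markers, were searched for a pool far from the rest of its group by Dixon's ratio. There were 2 such pools, and chance alone gives about 1 in 20. Pmaip1 in Sox2-positive pool 1 was at 6.00, with the other Sox2-positive pools between 5.56 and 5.62 (gap over range 0.86). Plk3 in Sox2-positive pool 2 was at 5.97, with the other Sox2-positive pools between 6.37 and 6.43 (0.86). The cause was not tested for either.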

How the results depend on the processing

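The rise of Ccng1 was called under all 15 alternatives, and the number of the 8 p53 genes called was 1 under each. Plk2 (not part of the table with dim genes left out), Ephx1 and Btg2 also stayed past the test in every alternative run. Bbc3, Pmaip1, Plk2 and Trp73 fell under the filter on dim genes, so that alternative gave no value for them. Of 251 differences of 17 named genes under the alternatives, 223 kept their direction and side of the threshold, 22 lost the call, 4 gained it and 2 changed sign. The sign changes were of values not past the test. With 1 array left out, Mdm2 ran from -0.0017 (without Sox2-positive pool 2) to 0.27, and Trp73 from -0.12 to 0.034 (without Sox2-negative pool 4).

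The replicate block changed the calls of Cdkn1a (0.0155) and Ppp1r13b (0.0446) and no other call among the p53, target, modifier and BCL2 lists. With it, 2340 genes passed in all, and 2 modifiers in place of 1. With 1 array left out, 1304 to 1835 of all genes, 3 to 6 of the other targets, 0 to 1 of the modifiers and 0 to 1 of the BCL2 family list passed. The count of other targets was 3 without Sox2-positive pool 2. The BCL2 family count was 0 with quantile normalization and 0 with the mean of probe sets. Higher genes made up 70.3% of all calls and 60.2% with quantile normalization. The cause of these changes was not tested.

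Dim values limit Bbc3, Pmaip1, Trp73 and Plk2, the last of these most in Sox2-negative pools. Without detection calls it cannot be shown whether their probe sets were above background. A p that missed the threshold does not show equal levels, and each interval gives the differences the arrays allow.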
